A study of Mus musculus with 6 samples.

Results

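The genes described here encode Ras GTPase-activating proteins, the enzymes that switch Ras off, in cultured mouse germline stem cells. They are the 9 genes Rasa1, Rasa2, Rasa3, Rasa4, Rasal1, Rasal2, Rasal3, Nf1 and Dab2ip, found by symbol among the 32285 genes of the count table. Germline stem cells are the cultured form of spermatogonial stem cells, the testis cells that maintain sperm production. The tested group was grown in a medium named for 8 mM pyruvate (3 libraries) and the control group in complete medium (3 libraries). All 6 libraries came from 1 wild-type line, DBA-GFP GS cell, and the labels do not give the composition of either medium. Messenger RNA was sequenced, and levels are CPM, a gene's count scaled to a fixed library total.

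Ras proteins are membrane switches that signal while they hold GTP. Exchange factors load them with GTP, and GTPase-activating proteins speed its hydrolysis to GDP, which ends the signal. In germline stem cells, GDNF, acting through the receptor Ret and its partner Gfra1, and fibroblast growth factors signal through Ras towards ERK and PI3 kinase. The set was chosen by function around Rasa3, which was selected on its higher level in pyruvate medium than in complete medium in these libraries. Their values are therefore given as a description, with no test.

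Library totals ran from 21830090 to 25562768 counts in pyruvate medium and from 20918312 to 26413080 in complete medium. Control replicate 2 stood apart, at 36.5 on the first principal component, and so did pyruvate replicate 1, on the opposite side at -27.2. Pyruvate replicates 2 and 3 lay at -1.42 and -4.64, and control replicates 1 and 3 at -4.12 and 0.81. Germ cell markers were present, 16 of 16 past the filter on low counts, with Ret at 658 CPM in pyruvate medium and 641 CPM in control, and Zbtb16, a transcription factor of undifferentiated spermatogonia, at 359 and 304 CPM. Their summed level was 4284 to 4471 CPM in pyruvate libraries and 4174 to 4763 CPM in control libraries. By log2 difference, 9 of the 16 were above 0 and 7 below, with a median of 0.04. Without control replicate 2, Zbtb16 was higher in pyruvate medium (log2 0.45, adjusted p = 0.00813 by edgeR). Tex101 was then lower (log2 -0.39, adjusted p = 0.00913 by edgeR). In that setting 4.16% of all genes tested passed. In bulk RNA, fewer cells of a type and less RNA per cell cannot be told apart.

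Rasa3 and Rasa4 were the members whose groups did not overlap, so the sequence before their start sites is shown. Each line gives the 250 bases upstream of the RefSeq start on GRCm38.p6, 5′ to 3′ on the gene's strand, with CCAAT boxes (CCAAT, or ATTGG for the other strand) in capitals.
Rasa3, chr8:13677588-13677837, minus strand: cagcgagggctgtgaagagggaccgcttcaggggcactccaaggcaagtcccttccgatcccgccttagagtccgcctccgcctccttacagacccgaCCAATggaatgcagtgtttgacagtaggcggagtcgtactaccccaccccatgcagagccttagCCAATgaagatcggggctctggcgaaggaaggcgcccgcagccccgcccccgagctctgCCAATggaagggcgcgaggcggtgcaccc
Rasa4, chr5:136083666-136083915, plus strand: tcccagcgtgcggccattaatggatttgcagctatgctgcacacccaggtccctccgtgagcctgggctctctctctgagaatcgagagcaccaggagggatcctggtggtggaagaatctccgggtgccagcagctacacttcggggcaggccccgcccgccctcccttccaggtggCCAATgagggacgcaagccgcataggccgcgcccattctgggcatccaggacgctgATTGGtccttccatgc

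The CCAAT box, known as a binding sequence of the factor NF-Y, occurred 3 times before Rasa3, with first bases 152, 88 and 29 bases upstream of the start. It occurred 2 times before Rasa4, 72 and 16 bases upstream. Among 32851 mouse promoter windows of the same length, 10.1% held at least 2 CCAAT boxes on either strand and 2.79% held at least 3. The windows of Rasa3 and Rasa4 had GC contents of 64.4% and 63.2%, against a median of 52.4% over all windows. These shares are therefore not for windows of like composition. Of the 8 members matched in the promoter table, all but Rasal1, Rasa2 held 1 box, 3 of the 4 windows of Dab2ip held 1 each, and Rasa1, Rasal2, Rasal3 and Nf1 held 0. The GC box GGGCGG, bound by Sp1, occurred 1 time before Rasa3 and 2 times before Rasa4, and 32.7% of all windows held at least 1. The E box CACGTG occurred in the windows of Rasal3 alone among members, against 6.02% of all windows. The motifs were chosen after these sequences had been read, and a match is a string of letters, not a binding site.

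Rasa3 (ENSMUSG00000031453, chromosome 8, 13566948 to 13677603, GRCm38) encodes a GTPase-activating protein that binds inositol phosphates and acts on Ras and Rap1. It stood at 175, 177 and 182 CPM in pyruvate replicates 1, 2 and 3, against 119, 128 and 116 CPM in control replicates 1, 2 and 3. Every pyruvate library lay above every control library, and control replicate 2 was the highest of the controls. The means were 178 ± 3.59 CPM in pyruvate medium and 121 ± 6.50 CPM in control (SD, n = 3 each), a difference of 0.56 on the log2 scale (SE 0.073) or 1.47-fold. Each value rests on 2425 to 4562 counts, and no exon of Rasa3 overlaps another annotated gene. Without control replicate 2 the log2 difference was 0.60 (SE 0.058), and over the removal of each library in turn it ran from 0.53 to 0.60.

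Rasa4 (ENSMUSG00000004952, chromosome 5, 136083916 to 136111860) encodes a calcium-promoted Ras inactivator and is a close relative of Rasa3. It stood at 10.9, 9.39 and 9.27 CPM in pyruvate replicates 1, 2 and 3, against 8.51, 7.11 and 7.88 CPM in control replicates 1, 2 and 3. The groups again did not overlap, but the lowest pyruvate and highest control libraries were closer than for Rasa3. The log2 difference was 0.33 (SE 0.13), and it ran from 0.26 to 0.40 over the removal of each library. Exons of Rasa4 overlap a microRNA gene by 82 bases on its own strand and a gene model by 182 bases on the other, so its 165 to 273 counts per library are uncertain to that extent.

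Of the 9 members, all of which passed the filter on low counts, 2 had every pyruvate library above every control library, against a background of 11.9% of the 14912 genes tested. None lay wholly below the controls (0 of 9), against 10.6% of genes tested, and 7 overlapped. Because the members were chosen with this comparison known, the count carries no weight of its own. The median log2 difference of the 9 was 0.00, beside -0.01 over all genes tested.

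**Figure D1:**
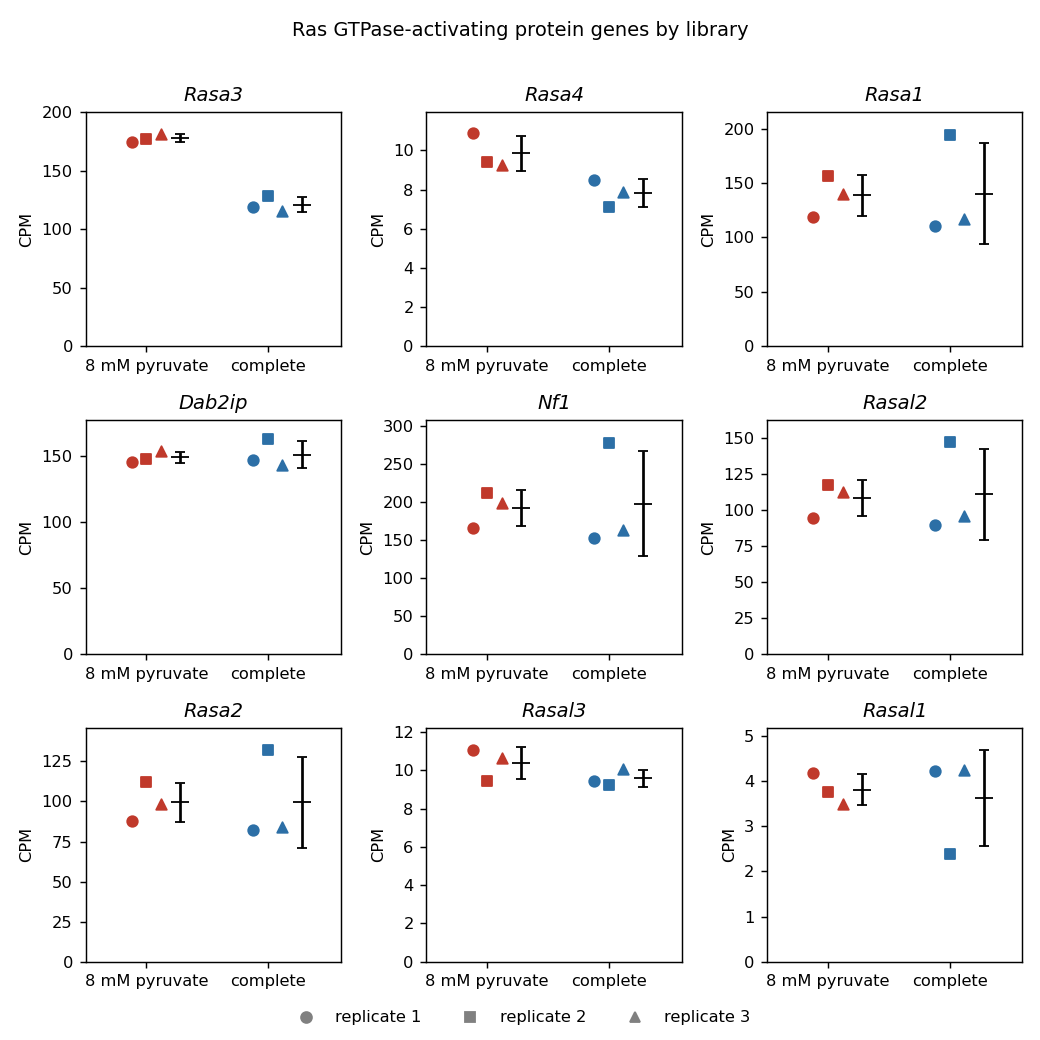
Level of each gene in CPM (y axis, from 0) in 8 mM pyruvate medium (red) and complete medium (blue); points are libraries with a marker per replicate number, and bars are the mean ± SD of 3 libraries. Rasa3 lies at 175 to 182 CPM in pyruvate medium and 116 to 128 CPM in control, while control replicate 2 is the highest library for Nf1, Rasa1, Rasa2, Rasal2 and Dab2ip.

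Nf1, Rasa1, Rasa2 and Rasal2 formed a second pattern, in which 1 control library exceeded all others. Nf1 (ENSMUSG00000020716, chromosome 11, 79339693 to 79581612) encodes neurofibromin, the tumour suppressor lost in neurofibromatosis. It stood at 165, 212 and 199 CPM in pyruvate replicates 1, 2 and 3, against 153, 278 and 164 CPM in control replicates 1, 2 and 3. The pyruvate libraries lay between the controls, above replicates 1 and 3 and below replicate 2. The log2 difference was -0.05 (SE 0.22), and without control replicate 2 it was 0.28 (SE 0.096).

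Rasa1 (ENSMUSG00000021549, chromosome 13, 85214780 to 85289130) encodes p120 RasGAP, which docks on activated receptors through SH2 domains. Its levels were 119, 157 and 140 CPM in pyruvate replicates 1, 2 and 3, against 110, 194 and 117 CPM in control replicates 1, 2 and 3. As for Nf1, control replicate 2 was highest and the other controls lowest. The log2 difference was -0.02 (SE 0.21), and 0.29 without control replicate 2. Its exons overlap those of Ccnh on the other strand by 12 bases.

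Rasa2 (ENSMUSG00000032413, chromosome 9, 96539300 to 96631617), of the same subfamily as Rasa3, stood at 87.9, 112 and 98.5 CPM in pyruvate replicates 1, 2 and 3, against 81.9, 132 and 84.2 CPM in control replicates 1, 2 and 3. Its group means were nearly equal, with a log2 difference of 0.00 (SE 0.19), and 0.26 without control replicate 2. Rasal2 (ENSMUSG00000070565, chromosome 1, 157135182 to 157412595), a relative of SynGAP, stood at 94.7, 118 and 113 CPM in pyruvate replicates 1, 2 and 3, against 89.9, 147 and 96.04 CPM in control replicates 1, 2 and 3. The log2 difference was -0.03 (SE 0.18), and 0.22 without control replicate 2. Exons of Rasal2 overlap a gene model on the other strand by 244 bases.

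In these 4 genes control replicate 2 was 1.76-fold (Nf1), 1.71-fold (Rasa1), 1.59-fold (Rasa2) and 1.58-fold (Rasal2) the mean of the other controls. The same library was 1.09-fold the other controls for Rasa3 and 0.565-fold for Rasal1. The longest transcripts of the 4 genes run from 4563 bases in Rasa1 to 11917 in Nf1, with GC contents of 39.8% to 46.9%, against 52.7% in Rasa3 and 60.7% in Rasal1. The longest transcript of Dab2ip has 6649 bases and that of Rasa3 has 4404, and control replicate 2 was 1.12-fold the other controls for Dab2ip. Over all genes tested, the median log2 difference of control replicate 2 from the other controls was 0.36 in the fifth of lowest transcript GC and -0.22 in the fifth of highest, and 0.32 in the fifth of longest transcripts and -0.26 in the fifth of shortest. With each library's GC and length trends removed, an alternative chosen after the data were seen, the log2 differences were -0.02 for Nf1, 0.09 for Rasa1, 0.15 for Rasa2 and -0.03 for Rasal2, and 0.50 for Rasa3. The part of GC content and length in the single-library differences was not tested further.

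**Figure D2:**
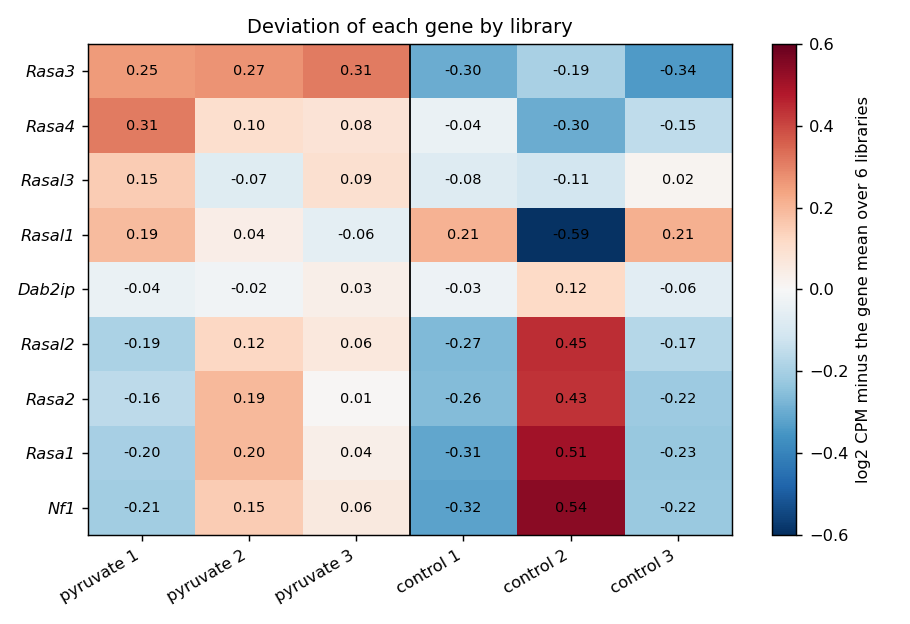
Log2 CPM of each gene (rows) in each library (columns) minus the gene's mean over the 6 libraries, with pyruvate libraries left of the line and control libraries right of it. Nf1, Rasa1, Rasa2 and Rasal2 lie 0.43 to 0.54 above their means in control replicate 2, Rasal1 lies 0.59 below, and the deviations of Rasa3 divide by medium.

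Dab2ip and Rasal3 differed little between the media, and the difference of Rasal1 was of uncertain sign. Dab2ip (ENSMUSG00000026883, chromosome 2, 35558266 to 35730994) encodes a scaffold that also binds the ASK1 kinase. It stood at 146, 148 and 153 CPM in pyruvate replicates 1, 2 and 3, against 147, 163 and 143 CPM in control replicates 1, 2 and 3. The controls spanned the pyruvate libraries, and the log2 difference was -0.02 (SE 0.077). Its exons overlap a gene model on the other strand by 347 bases.

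Rasal3 (ENSMUSG00000052142, chromosome 17, 32390659 to 32403583) is known from blood cells, where it restrains Ras in T cells. It stood at 11.1, 9.47 and 10.6 CPM in pyruvate replicates 1, 2 and 3, against 9.43, 9.23 and 10.1 CPM in control replicates 1, 2 and 3. The groups overlapped through pyruvate replicate 2 and control replicate 3, with a log2 difference of 0.12 (SE 0.11). Of 11 macrophage and immune markers 3 passed the filter, and their summed level was 23.0 to 26.7 CPM in pyruvate libraries and 24.9 to 35.6 CPM in control libraries. The 3 were Coro1a at 18.5 CPM in pyruvate medium and 24.2 CPM in control, Cd68 at 5.50 and 5.90 CPM, and Cd3e at 0.51 and 0.60 CPM. Coro1a had a log2 difference of -0.38 (adjusted p = 0.234 by edgeR), and -0.51 without control replicate 2 (adjusted p = 0.0178 by edgeR). Among those that did not pass, Ptprc, the pan-leukocyte marker, stood at 0.24 CPM in each group and Adgre1, the macrophage marker F4/80, was at 0 in all libraries. Exons of Rasal3 overlap a gene model on the other strand by 635 bases, and exons of Coro1a and Cd3e also overlap genes on the other strand.

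Rasal1 (ENSMUSG00000029602, chromosome 5, 120648812 to 120679597), a calcium-responsive member, was the lowest, at 4.18, 3.76 and 3.50 CPM in pyruvate replicates 1, 2 and 3, against 4.23, 2.40 and 4.25 CPM in control replicates 1, 2 and 3. These values rest on 61 to 105 counts per library. The sign turned with control replicate 2. The log2 difference was 0.09 (SE 0.23) with that library and -0.15 (SE 0.17) without it.

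Without control replicate 2, 5 members (Rasa3, Rasa4, Rasa1, Rasa2 and Nf1) had both remaining controls below every pyruvate library, against a background of 20.9% of the 15042 genes then tested. In that setting 1 member, Rasal1, lay wholly below, against 20.0% of genes tested. The median log2 difference of the 9 was then 0.26, beside 0.01 over all genes tested. As before, the members were chosen with this comparison known, and the library left out was the highest for Rasa1, Rasa2 and Nf1. These counts and this median therefore carry no weight of their own.

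**Figure D3:**
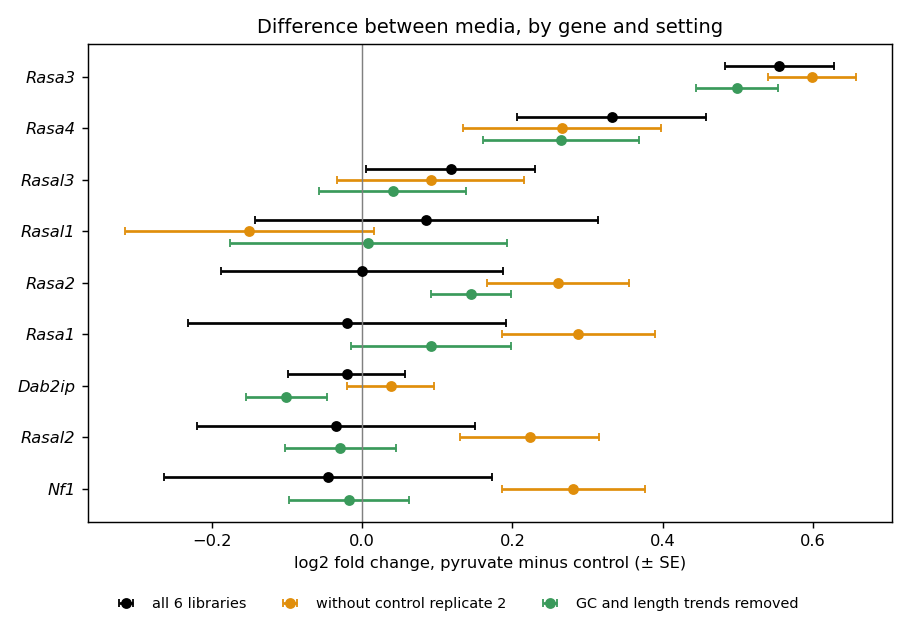
Log2 fold change of each gene, pyruvate minus control (x axis, ± SE), with all 6 libraries (black), without control replicate 2 (orange) and with GC and length trends removed (green). Rasa3 stays between 0.50 and 0.60, while Nf1, Rasa1, Rasa2 and Rasal2 lie near 0 with all libraries and between 0.22 and 0.29 without control replicate 2.

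Levels were compared between genes as CPM per kilobase of merged exon. Rasa3 was the most abundant member, with a mean of 29.4 CPM per kb over the 6 libraries, followed by Rasa1 at 19.1, Dab2ip at 17.9, Nf1 at 12.3, Rasal2 at 7.99 and Rasa2 at 6.28. Rasal3 at 2.04, Rasa4 at 1.18 and Rasal1 at 1.05 CPM per kb stood well below. Rasa3 exceeded Rasa1 in 5 of 6 libraries, the exception being control replicate 2, and Rasa1 exceeded Dab2ip in 3 of 6. Neither pair, nor Rasa4 and Rasal1 (4 of 6), was apart beyond its spread over libraries. Dab2ip over Nf1, Nf1 over Rasal2 and Rasal2 over Rasa2 held in 6 of 6 libraries, though their ranges over libraries overlapped. The ranges of Rasa2 and Rasal3, and of Rasal3 and Rasa4, did not overlap.

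Scaled by the longest transcript, which is 6579 bases in Rasa2 against 15856 bases of merged exon, Rasa2 moved above Rasal2 (15.1 and 10.9 CPM per kb). Rasa3 and Rasa1 then averaged 40.4 and 30.4 CPM per kb in pyruvate medium, and 27.5 and 30.8 CPM per kb in control, where Rasa1 was the higher through control replicate 2. Rasa3 made up 35.9%, 32.4% and 34.2% of the summed CPM per kb of the 9 members in pyruvate replicates 1, 2 and 3, against 28.7%, 22.6% and 27.5% in control replicates 1, 2 and 3. These shares follow from the choice of Rasa3 on its level and carry no weight of their own. The sum of the 8 other members overlapped, at 61.4, 72.3 and 68.9 CPM per kb in pyruvate replicates 1, 2 and 3, against 58.2, 86.1 and 60.02 CPM per kb in control replicates 1, 2 and 3.

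**Figure D4:**
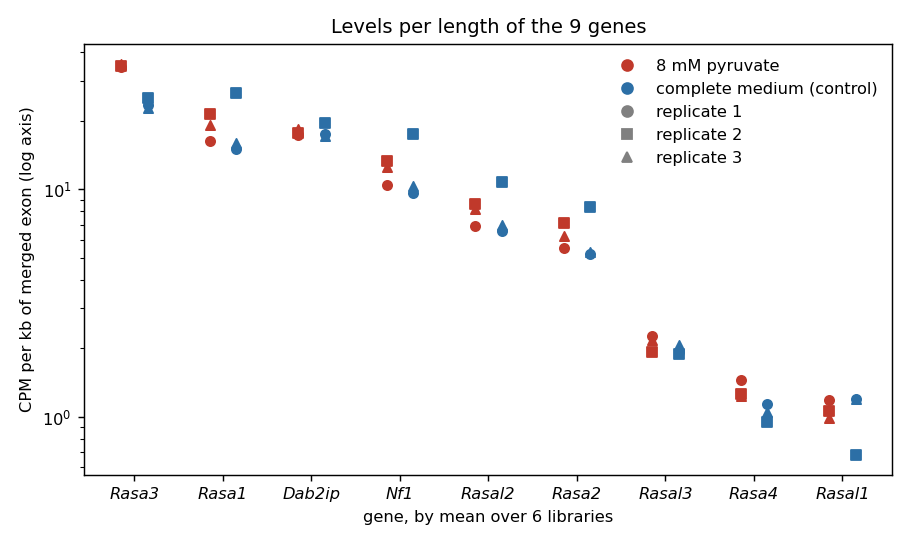
CPM per kilobase of merged exon (y axis, log scale) of each gene, ordered by its mean over the 6 libraries, with pyruvate libraries (red) left of control libraries (blue) and a marker per replicate number. Rasa3 leads at 22.7 to 35.7 CPM per kb, and Rasal3, Rasa4 and Rasal1 stay below 2.27 CPM per kb.

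By Pearson correlation of log2 CPM over the 6 libraries, the genes like Rasa3 among 10526 with a mean of at least 5 CPM included Msmo1, a sterol oxidase of cholesterol synthesis (r = 0.993), Zfyve1 (r = 0.991) and Pgbd5 (r = 0.990). These values describe the order of 6 libraries that share 2 media, and any gene that divides by medium and is higher in pyruvate medium scores high. Zfyve1 stood at 90.2, 88.9 and 88.4 CPM in pyruvate replicates 1, 2 and 3, against 70.2, 74.9 and 70.9 CPM in control replicates 1, 2 and 3. As in Rasa3, replicate 2 was the highest control.

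The neighbours of Rasa3 on chromosome 8 were read for comparison, as the nearest protein-coding genes tested on each side, a choice made after the values were seen. Cdc16, a subunit of the anaphase-promoting complex 80073 bases away, stood at 146 ± 2.57 CPM in pyruvate medium and 142 ± 4.89 CPM in control (SD, n = 3 each; log2 0.04, adjusted p = 0.837 by edgeR). Gas6, a ligand of TAM receptors on the other side, stood at 52.3 ± 3.91 and 52.7 ± 6.56 CPM (log2 -0.01, adjusted p = 0.975 by edgeR). Upf3a, of nonsense-mediated decay, stood at 50.5 ± 3.78 and 42.2 ± 2.75 CPM (log2 0.26, adjusted p = 0.274 by edgeR). The closest, 1700029H14Rik, 4487 bases away, averaged 0.76 ± 0.19 CPM in pyruvate medium and 0.37 ± 0.21 CPM in control (log2 1.03, SE 0.42; edgeR adjusted p = 0.324), where 3 counts are worth 0.11 to 0.14 CPM.

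The rest of the Ras pathway was read from 7 lists with 154 genes, of which 149 were tested. By edgeR's quasi-likelihood test over all genes, 0 of the 149 passed an adjusted p of 0.05, against a background of 0.0536% of genes tested. At an unadjusted p under 0.05 the count was 20 (13.4%), against 14.4% of genes tested, and DESeq2 called 2 of the 147 to which it gave an adjusted p (1.36%), Ccnd1 and Egr3, both lower, against 2.19% of all genes. Without control replicate 2, 3 genes were higher (Rasgrp1, Sipa1l3 and Pik3r3) and 4 lower (Rasgrp2, Ccnd1, Ier2 and Junb), or 4.70% of the lists, against 4.16% of all genes tested in that setting, of which 2.33% were higher and 1.82% lower. With GC and length trends removed the count was 7 (4.70%, against 3.95% of all genes tested), with Rasl11b higher and Iqgap1, Iqgap2, Src, Braf, Ier2 and Ccnd1 lower. Exons of Pik3r3 overlap a gene model on its own strand, and those of Iqgap1 a gene model on the other strand.

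Of 19 Ras family GTPases tested, 0 passed, with 9 above and 10 below a log2 difference of 0 and a median of -0.09. Lowest in p were Rasl11b, a Ras-like gene, at 4.99 ± 0.62 CPM in pyruvate medium and 2.98 ± 0.41 CPM in control (log2 0.75, SE 0.17, adjusted p = 0.134 by edgeR), Diras1, a distant Ras relative, at 2.88 and 1.48 CPM (log2 0.97, adjusted p = 0.222 by edgeR), and Rras, at 57.4 ± 7.98 and 43.9 ± 4.90 CPM (log2 0.39, adjusted p = 0.232 by edgeR). Rras encodes R-Ras, a GTPase on which Rasa3 acts. Pyruvate replicate 1 was the highest library for each of these 3 genes.

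Of 18 exchange factors tested, 0 passed with all libraries, with a median of -0.09. Rasgrp2, an exchange factor for Rap1, stood at 141 ± 13.5 CPM in pyruvate medium and 169 ± 17.9 CPM in control (log2 -0.27, SE 0.11, adjusted p = 0.307 by edgeR), Ralgds, which activates Ral downstream of Ras, at 179 ± 12.1 and 153 ± 9.65 CPM (log2 0.23, adjusted p = 0.276 by edgeR), and Rasgrp1, a diacylglycerol-responsive factor, at 2.27 and 1.27 CPM (log2 0.82, adjusted p = 0.276 by edgeR). Exons of Rasgrp2 overlap a gene model on the other strand.

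Of 22 other GTPase-activating proteins and their partners tested, 0 passed, with a median of -0.02. Iqgap2, a scaffold whose GAP-like domain does not activate GTPases, stood at 20.7 ± 0.21 CPM in pyruvate medium and 27.6 ± 5.20 CPM in control (log2 -0.42, adjusted p = 0.225 by edgeR). Sipa1l3, a Rap GTPase-activating protein, stood at 204 ± 9.06 and 172 ± 11.8 CPM (log2 0.24, adjusted p = 0.225 by edgeR). Spred2, which brings neurofibromin to Ras at the membrane, stood at 101 ± 13.2 and 135 ± 27.2 CPM (log2 -0.41, adjusted p = 0.276 by edgeR), with control replicate 2 highest at 166 CPM.

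Upstream, 0 of 28 receptors and adaptors passed, with a median of -0.07. Gab2, an adaptor, stood at 11.3 ± 0.46 CPM in pyruvate medium and 9.45 ± 0.81 CPM in control (log2 0.25, adjusted p = 0.348 by edgeR), the kinase gene Src at 107 ± 3.77 and 120.5 ± 8.39 CPM (log2 -0.18, adjusted p = 0.367 by edgeR), and Pdgfra at 10.8 ± 0.21 and 12.2 ± 0.68 CPM (log2 -0.18, adjusted p = 0.464 by edgeR). Downstream, 0 of 20 genes of RAF, MEK and ERK kinases and scaffolds passed, with a median of 0.05. The scaffold Ksr2 stood at 23.8 ± 1.47 and 19.4 ± 2.02 CPM (log2 0.30, adjusted p = 0.271 by edgeR), Braf at 43.2 ± 6.19 and 57.1 ± 15.8 CPM (log2 -0.40, adjusted p = 0.388 by edgeR), and Rps6ka3, a kinase activated by ERK, at 116 ± 12.6 and 140 ± 27.6 CPM (log2 -0.26, adjusted p = 0.448 by edgeR). Control replicate 2 was the highest library for Braf and Rps6ka3. Exons of Pdgfra and Braf overlap other annotated genes.

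Of 19 genes of the PI3 kinase arm tested, 0 passed with all libraries, with a median of 0.02. Rptor, which defines mTOR complex 1, stood at 110 ± 3.21 CPM in pyruvate medium and 96.8 ± 4.34 CPM in control (log2 0.18, adjusted p = 0.317 by edgeR). Inpp5d, the phosphatase SHIP1, stood at 6.67 ± 0.84 and 8.61 ± 1.16 CPM (log2 -0.37, adjusted p = 0.321 by edgeR) and Phlpp1, a phosphatase of Akt, at 15.9 ± 1.04 and 19.8 ± 3.54 CPM (log2 -0.32, adjusted p = 0.341 by edgeR). Exons of Rptor overlap an antisense gene.

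ERK feedback and target genes had the lowest median of the 7 lists, -0.20, with 18 of 23 tested members below 0 and 0 past the test with all libraries. Over all genes tested 51.9% lay below 0. The summed level of the list was 2099, 2877 and 3027 CPM in pyruvate replicates 1, 2 and 3, against 3103, 3415 and 3038 CPM in control replicates 1, 2 and 3. Pyruvate replicate 1 stood well below the other 5 libraries. Dusp6, a phosphatase of ERK, stood at 137, 248 and 254 CPM in pyruvate replicates 1, 2 and 3, against 232, 268 and 232 CPM in control replicates 1, 2 and 3. Without pyruvate replicate 1, 14 of the 23 lay below 0, with a median of -0.13, beside 51.1% of all genes then tested. Without control replicate 2, 20 of the 23 lay below 0, with a median of -0.16, beside 47.6% of all genes then tested. Ccnd1, the cyclin D1 gene, stood at 98.0, 107 and 104 CPM in pyruvate replicates 1, 2 and 3, against 150, 161 and 152 CPM in control replicates 1, 2 and 3. Its groups did not overlap, and it narrowly missed the threshold (log2 -0.58, SE 0.074, adjusted p = 0.0592 by edgeR). Egr3, an immediate early transcription factor, stood at 23.6 ± 6.15 and 36.5 ± 4.30 CPM (log2 -0.63, adjusted p = 0.200 by edgeR), and Junb at 8.45 ± 1.11 and 11.5 ± 1.84 CPM (log2 -0.45, adjusted p = 0.257 by edgeR). Exons of Ccnd1 and Junb overlap genes on the other strand.

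**Figure D5:**
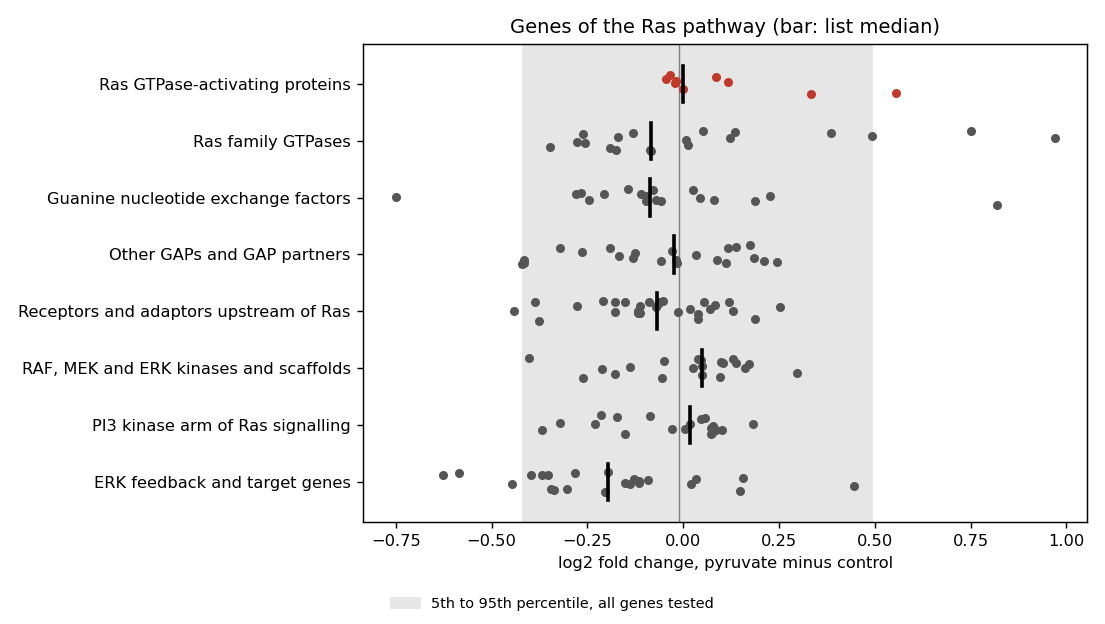
Log2 fold change, pyruvate minus control (x axis), of every tested gene in the 9 Ras GTPase-activating proteins (red) and 7 pathway lists (grey); black bars are list medians, the grey band spans the 5th to 95th percentile of all genes tested (-0.42 to 0.49) and the grey line is their median. Rasa3 is the member outside the band, and the ERK target list has the lowest median, -0.20 with all libraries. The median of that list was -0.13 without pyruvate replicate 1 and -0.16 without control replicate 2.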

How the data were processed

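The authors deposited raw counts, whole numbers for each gene and library. A further 3 columns belong to no sample described here and were left out. Build mm10, HTSeq 2.0.5, STAR 2.7.11a, cutadapt 4.6 and bcl2fastq 2.20 appear in the submitters' processing notes. The sources used here give no annotation release, strand setting or filter. Members and list genes with values given here are therefore marked uncertain where their exons overlap another gene. Per the labels' protocols, TRIzol and a column were used for RNA and a stranded mRNA kit for the libraries. Every row carried a gene identifier. Symbols, positions and lengths came from GENCODE M21 on GRCm38, and 32235 of 32285 identifiers had a symbol. Promoter sequences came from RefSeq on GRCm38.p6, which matched 8 of the 9 members.

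The analysis used edgeR 4.0.16 in R 4.3.3. The filter filterByExpr, at a minimum count of 10, left 14912 genes, which were scaled by TMM factors and tested with robust quasi-likelihood dispersions, no covariate and Benjamini-Hochberg adjustment over all genes tested at 0.05. The SE of a log2 fold change is its size over the root of F. Log2 CPM used a prior count of 2. Alternatives were DESeq2 1.42.0 and its size factors, library totals, no filter, the replicate number as a block, leaving out each library and, added after seeing the data, removal of GC and length trends by splines with 5 degrees of freedom. The steps were tested on simulated counts with a shared dispersion for all genes, no outlying library and no GC or length trend. That run does not show how the steps behave on libraries such as these.

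The members and lists were chosen with earlier results of these data known. Genes named from the lists are the 3 of lowest p in each and any past the threshold; of the 5 most like Rasa3 by correlation 3 are named, and the others are not reported here. Library pairs within groups differed by more than sampling noise (chi-square per gene 3.07 to 46.8), so each library counts as 1 sample. No label says that the cultures were separate, so the spread behind each p-value may be technical. Floors of 3 counts cover counting error only. Among other cell type markers, 10 of 12 mesenchymal markers (385 to 422 CPM summed in pyruvate libraries, 403 to 467 in control), 4 of 9 Sertoli (28.6 to 35.3 and 28.8 to 36.0) and 5 of 6 endothelial markers (28.3 to 36.6 and 34.6 to 35.9) passed the filter. Their part in the results was not tested.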

Additional observations from a re-analysis of the deposited data

How the results depend on the processing

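The log2 difference of Rasa3 ran from 0.50 with GC and length trends removed to 0.60 without control replicate 2. Its direction follows from its selection on groups that do not overlap. Dab2ip came to -0.10 with trends removed, further from its value with all libraries than the spread between replicates. The median of the 9 ran from -0.05 to 0.26 over the removal of each library. The 8 genes called over all genes became 14 with library totals, 83 with no filter, 286 with DESeq2, 589 with trends removed and 0 to 625 on leaving out each library, lowest without pyruvate replicate 2 or 3 and highest without control replicate 2. Calls in the pathway lists were 0, and became 1 with library totals, 1 with no filter, 2 with DESeq2, 7 with trends removed and 0 to 7 on leaving out each library. The causes were not tested. Ccnd1 passed in 6 of 12 alternatives (adjusted p from 6.17e-07 to 0.352). Of 252 alternative values of the 21 list genes named for lowest p, 235 kept their direction and side of the threshold, 17 passed it and 0 reversed. These genes were chosen on the fit with all libraries, and the alternatives reuse those libraries, so the lack of reversals carries no weight of its own. The tally leaves out Pik3r3, Ier2 and Iqgap1, which passed in alternatives only. Rasa3 over Rasa1 per length was 1.59 with merged exons and 1.15 with the longest transcript, since the lengths differ. Same-numbered libraries correlated at 0.31, 0.31 and -0.07 in their deviations from group means. Pyruvate replicates 1 and 2 correlated best with the control of the same number, and pyruvate replicate 3 with control replicate 2 (0.15). Deviations within a group are not independent, so these values cannot decide whether the numbers pair the samples. With the replicate block, 265 of 14912 genes tested and 3 of the 149 list genes tested were called. The least abundant member, Rasal1, rests on 61 to 105 counts per library.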
